A study of Homo sapiens with 30 samples.

Results

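The mitochondrial genome of H1299 cells was followed through its own transcripts. These are the genes whose symbols begin with MT-, chosen by matching the Ensembl identifiers of the count table to the GENCODE annotation. The annotation holds 37 such genes, which are 13 mRNAs, 2 rRNAs and 22 tRNAs. Of the 39359 genes in the count table, 31 are among them, namely all 13 mRNAs, both rRNAs and 16 tRNAs. A total of 22 had enough counts for a test, and the other 9, all tRNAs, held between 2 and 143 counts over all libraries together and at most 16 in any library.

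H1299 is a lung carcinoma line that lacks p53 protein of its own, here between passages 7 and 12. Cells received pGFP, which carries GFP alone, or a vector with wild type p53, RW mutant p53 (an arginine-to-tryptophan change in the DNA-binding domain) or p53 O6-meG, whose template strand bears an O6-methylguanine lesion at that codon. In p53 TM cells, the O6-meG vector was combined with 10 µM O6-bzG, a compound that inactivates AGT, the protein that repairs the lesion. All cultures were transfected with Lipofectamine and sorted for GFP, so the cells measured are the transfected ones. RNA was taken at 6 h and at 24 h from 3 replicates of each vector, giving 30 libraries in 10 groups. Among the 6 h libraries, replicate 2 of p53 TM and its counterpart from p53 O6-meG cells carry titles with both group names. They were placed by their genotype label, while the names of their columns in the count table give the other group. The p53 target *CDKN1A* also lay against that placement. It was at 50.0 CPM (counts scaled to library size) in the library labelled p53 O6-meG and 249 CPM in the library labelled p53 TM. The other p53 O6-meG libraries at 6 h had 261 and 268 CPM and the other p53 TM libraries 57.7 and 65.7 CPM. Comparisons between vectors that use these 2 libraries at 6 h are therefore given with and without them where a call changed.

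Library depth lay between 32302699 and 71950532 counts with a median of 44424643. Of the markers examined, *VIM*, *KRT8* and *KRT18* were expressed in every library, the lung epithelial factor *NKX2-1* reached at most 1.38 CPM, and the surfactant genes *SFTPC* and *SFTPB* and the blood cell gene *PTPRC* at most 0.11 CPM. The endothelial genes *PECAM1* and *VWF* reached 1.04 and 1.01 CPM and the fibroblast genes *COL1A1* and *DCN* 2.31 and 0.584 CPM, with medians between 0.153 and 0.507 CPM. In such bulk libraries, fewer cells that express a transcript and less of it in each cell cannot be told apart, and the number of mitochondrial genomes was not measured.

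The human mitochondrial genome is a small circle that is transcribed from both strands into long precursors, which are cut at the tRNAs that lie between most of the other genes. Its mRNAs encode core subunits of the respiratory chain (ND1 to ND6 and ND4L of complex I, CYB of complex III, CO1 to CO3 of complex IV) and of the ATP synthase (ATP6, ATP8), and its rRNAs build the mitochondrial ribosome. Most of its genes are read in the direction the annotation calls plus. ND6 and 8 of the tRNAs are read in the other direction, and 7 of these genes were in the count table.

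Several of these genes touch or overlap, which limits how reads can be divided between them, and the places that bear on the values below are printed here from the hg38 mitochondrial sequence. MT-ATP8 and MT-ATP6 share 46 bases, which make up 22.2% of MT-ATP8 and 6.75% of MT-ATP6, and these bases are in capitals in the first sequence. MT-ND4L and MT-ND4 share 7 bases, in capitals in the second. MT-TI and MT-TQ, read in opposite directions, share 3 bases, in capitals in the third. MT-CO3 begins on the last base of MT-ATP6, and its first codon is in capitals in the fourth. The last shows, on the minus strand, the start of MT-ND6, with the start codon in capitals.
MT-ATP8/MT-ATP6, chrM:8512-8587, plus strand: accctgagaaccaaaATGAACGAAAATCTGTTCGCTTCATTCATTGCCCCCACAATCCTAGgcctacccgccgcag
MT-ND4L/MT-ND4, chrM:10745-10781, plus strand: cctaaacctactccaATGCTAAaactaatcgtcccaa
MT-TI/MT-TQ, chrM:4314-4346, plus strand: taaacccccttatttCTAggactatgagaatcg
MT-ATP6/MT-CO3, chrM:9192-9224, plus strand: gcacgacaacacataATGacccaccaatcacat
MT-ND6, chrM:14644-14673, minus strand: ATGatgtatgctttgtttctgttgagtgtg
The base composition of MT-ND6 mirrors its strand. Its sense sequence holds 35.6% G and 7.05% C, while the other 12 mRNAs hold between 6.28% and 16.2% G and between 29.5% and 36.0% C. In 6 of those 12, the annotated length is not a multiple of 3. How reads over a shared base were assigned is not given in the sources used here, nor is the strand setting, so MT-ATP8 and MT-ATP6, and genes opposite one another, may have gained or lost reads to their neighbour.

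Levels per length differed widely between mRNAs that lie beside each other. On the scale of mean CPM per kb of annotated gene over the 30 libraries, MT-CO3 stood at 1097, MT-CO1 at 618 and MT-CO2 at 594, the 3 subunits of complex IV. The other 10 mRNAs lay between 11.2 for MT-ATP8 and 187 for MT-ND3. MT-ATP6, whose last base is the first of MT-CO3, was at 66.7 CPM per kb. The rRNAs MT-RNR1 and MT-RNR2, which the library kit is designed to deplete, were still at 510 and 827 CPM per kb. The complex I subunits MT-ND4L (58.0), MT-ND4 (53.7), MT-ND1 (36.2), MT-ND5 (34.4) and MT-ND2 (29.3) and the complex III subunit MT-CYB (60.9) were close to each other on this scale, and MT-ND6, from the other strand, was at 32. tRNAs, which are short and folded and are poorly captured by this kind of library, were counted in small numbers, and MT-TP, with a mean of 1.40 CPM, had the highest level of those tested. Each tRNA tested is shorter than 75 bases, the read length, so a full-length read counted there reaches past the gene. Counts on tRNAs may thus come from precursor or neighbouring RNA, which was not tested. Levels between genes also depend on how many reads can be placed. As a description of the reference, the share of 75-base windows with an exact copy in the nuclear genome was 36.6% for MT-CO1, 34.4% for MT-ND2, 28.4% for MT-RNR1, 28% for MT-ATP6 and 14.9% for MT-CO3, against 0% for MT-ATP8, MT-ND3, MT-ND4L, MT-ND4 and MT-CYB. The part of these copies in the levels was not tested. Counts on the annotated nuclear copy *MTCO1P12* were between 0.127% and 0.213% of those on MT-CO1 in every library.

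Mitochondrial transcripts took a small share of all counts, and the share was larger at 24 h. All 31 genes together held between 0.123% and 0.428% of counts at 6 h (median 0.220%) and between 0.310% and 1.19% at 24 h (median 0.609%). The mRNAs held 0.1% to 0.343% at 6 h and 0.183% to 0.595% at 24 h. The rRNAs held 0.0183% to 0.0847% at 6 h and 0.0971% to 0.762% at 24 h, without overlap between the times. Within the mitochondrial counts, the rRNAs made up 8.87% to 28.3% at 6 h and 31.3% to 64.2% at 24 h, again without overlap. The mean share over all 31 genes was 2.69 times as high at 24 h as at 6 h, and between 2.49 and 2.83 times as high with any 1 library left out. Taken by replicate number, the ratio was 4.95, 2.24 and 1.79 for numbers 1, 2 and 3 (SD 1.71). Leaving out 1 library does not show this spread, since libraries of the same replicate number moved together.

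**Figure D1:**
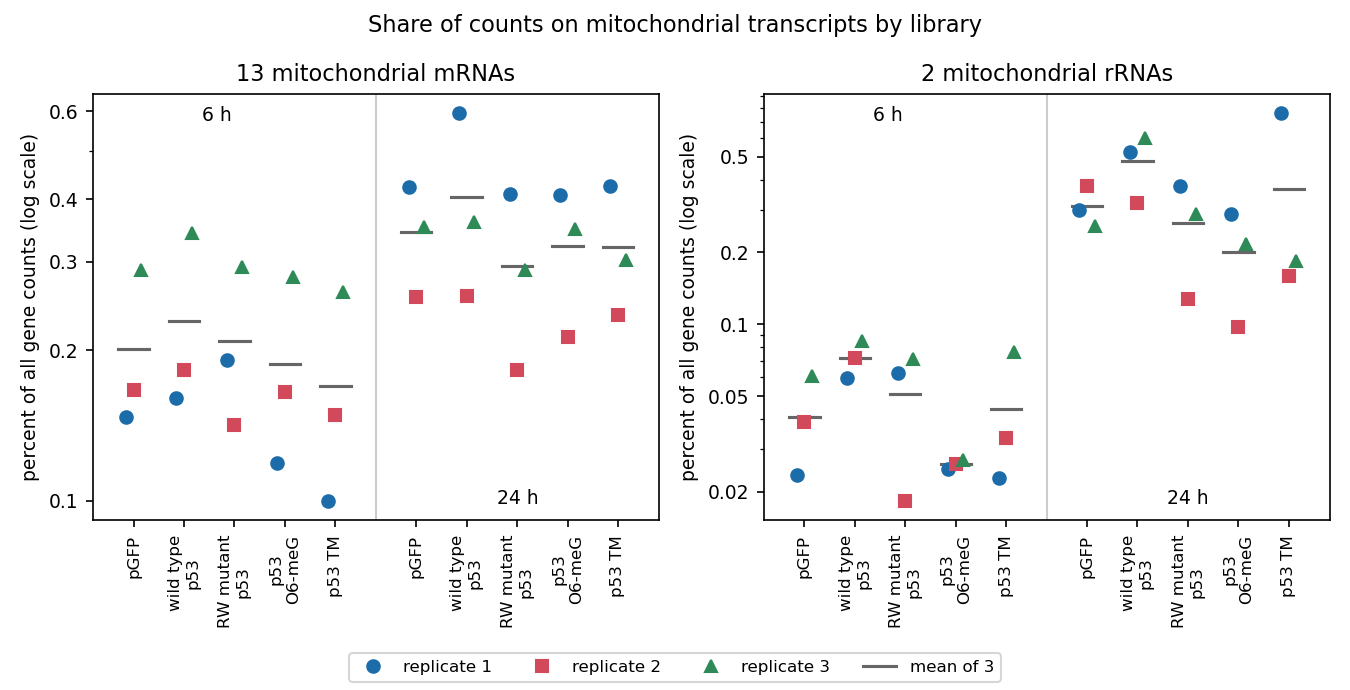
Percent of all gene counts in each of the 30 libraries (log scale) on the 13 mRNAs (left) and the 2 rRNAs (right), by vector and time, with a symbol per replicate number and a line for the mean of 3. The rRNA shares at 24 h, from 0.0971% up, lie above all those at 6 h, while the mRNA shares overlap between times and follow the replicate number, with replicate 3 highest for every vector at 6 h and replicate 1 highest for every vector at 24 h.

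The change from 6 h to 24 h was tested with edgeR's quasi-likelihood test over all 30 libraries, as the mean over the 5 vectors. Of 22 mitochondrial genes, 13 were higher and 1 was lower at 24 h at an adjusted P under 0.05, which is 14 called, against 71.4% of all genes tested (37.2% higher and 34.2% lower). The share called was thus close to that of all genes, but the sizes were not alike, with a median log2 fold change of 0.58 over the mitochondrial genes and 0.03 over all genes. Because libraries of the same replicate number moved together, the 30 libraries are not 30 independent measurements of time. Counts were therefore also summed over the 5 vectors for each time and replicate number, and the 3 sums at 24 h compared with the 3 at 6 h, a choice made after values had been seen. By this comparison 7 mitochondrial genes were called, 6 higher and 1 lower, against 54.9% of all genes (28.4% higher and 26.4% lower).

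The rRNAs rose most of the 22. MT-RNR2 (chrM:1671-3229), the RNA of the large ribosomal subunit, was at 155 to 677 CPM at 6 h (median 287) and at 741 to 4912 CPM at 24 h (median 1971). The times did not overlap. Its log2 fold change was 2.55 (SE 0.241, n = 15 and 15, edgeR adjusted P = 5.15e-10) over the 30 libraries and 2.5 (SE 0.3, adjusted P = 0.000188) between the sums. MT-RNR1 (chrM:648-1601), the RNA of the small subunit, was at 37.1 to 246 CPM at 6 h (median 109) and at 223 to 2201 CPM at 24 h (median 637), with 14 of 15 libraries at 24 h above the highest at 6 h. Its log2 fold change was 2.85 (SE 0.286, adjusted P = 1.59e-09) over the 30 libraries and 2.73 (SE 0.256, adjusted P = 6.28e-05) between the sums. Within a single vector the estimates for MT-RNR1 ran from 2.36 (SE 0.627) in RW mutant p53 to 3.23 (SE 0.653) in p53 O6-meG, and MT-RNR2 and MT-RNR1 were called in each of the 5 vectors. Both rRNAs are targets of the depletion step, and how completely they were removed from each library was not measured, so depletion and abundance cannot be told apart.

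Most mRNAs read in the plus direction rose less. MT-ND3 (chrM:10059-10404), a small subunit of complex I, was at 21.1 to 85.1 CPM at 6 h (median 32.2) and at 44.5 to 143 CPM at 24 h (median 82.9), and all 15 libraries at 24 h were above the median at 6 h. Its log2 fold change was 1.10 (SE 0.212, adjusted P = 5.10e-05) and 1.06 (SE 0.345, adjusted P = 0.0268) between the sums. MT-CO2 rose by 0.80 (SE 0.174), from a median of 255 to 498 CPM, MT-CYB by 0.81 (SE 0.183), from 47.3 to 92.0 CPM, and MT-ND4L by 0.64 (SE 0.135), from 11.3 to 19.8 CPM. These 3 were also called between the sums, with adjusted P values of 0.0436, 0.0413 and 0.0324. A second set was called over the 30 libraries but not between the sums. It held MT-CO1 (chrM:5904-7445), which carries the catalytic centre of complex IV (0.83, SE 0.201, adjusted P = 0.0671 between the sums), MT-ND1 (0.83, SE 0.199, 0.0540), the ATP synthase subunits MT-ATP8 (0.65, SE 0.251, 0.229) and MT-ATP6 (0.55, SE 0.220, 0.247), MT-ND4 (0.47, SE 0.207, 0.302), and the tRNAs MT-TI (0.95, SE 0.262, 0.0765) and MT-TT (0.61, SE 0.232, 0.167).

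Other genes showed no call in either comparison. MT-CO3 (chrM:9207-9990), with the highest level per length, was at 455 to 1226 CPM at 6 h and 595 to 1523 CPM at 24 h, with a log2 fold change of 0.26 (SE 0.152, adjusted P = 0.135). MT-ND2 (0.13, SE 0.159) and MT-ND5 (−0.08, SE 0.172) had values near 0. The value of MT-ND5 was above 0 when library totals were used without TMM factors, at 0.10. Of the tRNAs not called, MT-TS1 was at 0.51 (SE 0.282), MT-TQ at −0.06 (SE 0.226), MT-TA at −0.14 (SE 0.241), MT-TE at −0.64 (SE 0.331) and MT-TP at −0.40 (SE 0.188, adjusted P = 0.0619).

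MT-ND6 (chrM:14149-14673), the sole mRNA read in the minus direction, fell. It was at 5.41 to 47.9 CPM at 6 h (median 17.4) and at 6.94 to 17.3 CPM at 24 h (median 9.81), and all 15 libraries at 24 h lay below the median at 6 h, within the range of 6 h. It fell by 0.99 on the log2 scale (SE 0.213, adjusted P = 0.000176) over the 30 libraries and by 1.12 (SE 0.287, adjusted P = 0.00920) between the sums. Within single vectors MT-ND6 was called lower in wild type p53 (−1.24, SE 0.472) and RW mutant p53 (−1.49, SE 0.479), and was at −1.14 in pGFP, −0.93 in p53 TM and −0.17 in p53 O6-meG without a call. The 13 genes called higher were all among the 16 tested that are read in the plus direction. Of the 6 tested in the minus direction, 0 were called higher, 1 was called lower, and 1 had a value above 0. All of these 6 but MT-ND6 are tRNAs, and MT-TQ, MT-TA, MT-TS1 and MT-TE had median counts of 5 to 7.5 per library. Most of the 16 in the plus direction are mRNAs and rRNAs with more counts. Strand, kind of RNA and count level cannot be told apart here, and the difference between strands was not tested.

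**Figure D2:**
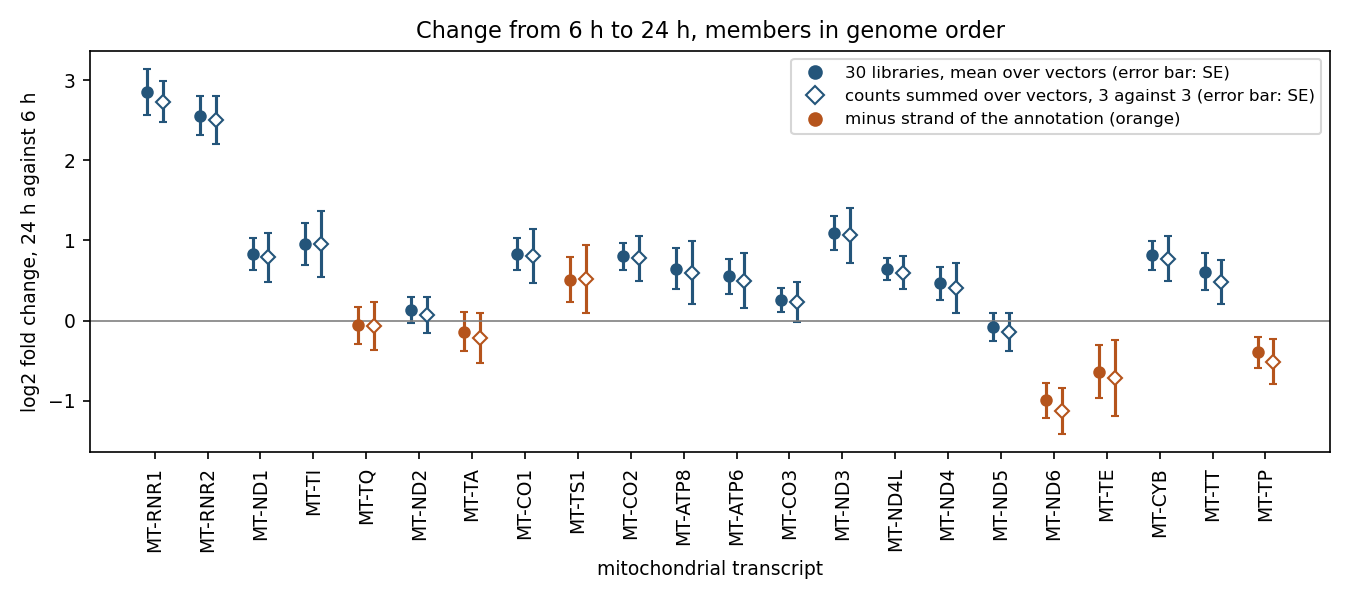
Log2 fold change from 6 h to 24 h of the 22 mitochondrial genes tested, in genome order, with SE bars. Filled circles use the 30 libraries and open diamonds the counts summed over vectors. MT-RNR1 and MT-RNR2 lie at 2.5 to 2.85, the plus-strand mRNAs between −0.14 and 1.10, and MT-ND6, on the minus strand (orange), near −1.

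Ratios between mitochondrial genes within a library do not depend on how libraries are scaled to each other. The per-length ratio of MT-RNR2 to MT-CO1 was between 0.222 and 0.944 at 6 h (median 0.544) and between 1.00 and 3.00 at 24 h (median 1.44). That of MT-CYB to MT-ND6, neighbours on opposite strands, was between 0.769 and 2.52 at 6 h (median 1.08) and between 2.35 and 6.05 at 24 h (median 3.51). The ratio of MT-CO3 to MT-ND3 went the other way, from 6.32 to 14.0 at 6 h (median 8.91) to 3.40 to 6.53 at 24 h (median 4.51). The first of these ratios separated the times completely, and the ranges of the other ratios overlapped at their edges. MT-RNR2 is a target of the depletion step, so depletion and abundance cannot be told apart in the first ratio.

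When vectors were taken one by one, the number of the 22 genes called between 24 h and 6 h was 5 in pGFP cells (against 40.1% of all genes), 3 with wild type p53 (45%), 3 with the RW mutant (39.3%), 6 with p53 O6-meG (49.1%) and 4 with p53 TM (45.8%). The rRNAs were in each of these counts. Besides them were MT-TI, MT-ND3 and MT-ND4L in pGFP, MT-ND6 in wild type and in RW mutant p53, MT-ND1, MT-ND3, MT-ND4L and MT-CYB in p53 O6-meG, and MT-CO2 and MT-CYB in p53 TM. Whether the change over time differed between vectors was tested for each gene, and 0 of 22 were called, against 7.14% of all genes, with 0 at an unadjusted P under 0.05. With the replicate block within each time the count was also 0 (17.7% of all genes), but with that block and the 2 libraries with conflicting titles left out it was 10 (24.3%), and with both placed by the group named first in their titles it was 4 (26%), namely MT-ND1, MT-ND2, MT-ND4 and MT-TP. Without the block, leaving these libraries out or moving them left the count at 0.

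Most of the nuclear genes listed for the upkeep of mitochondrial RNA were lower at 24 h. Of all genes tested, 34.2% were lower and 37.2% higher over the 30 libraries, and 26.4% lower and 28.4% higher between the sums. Of 10 genes listed under mitochondrial transcription, 9 were lower and 1 higher at 24 h over the 30 libraries, with a median log2 fold change of −0.41. Among them were *TFB2M* (−0.64) and *TFAM* (−0.61), which serve the initiation of transcription, the RNA polymerase *POLRMT* (−0.37), the rRNA methylase *TFB1M* (−0.82) and *MTERF3* (−0.81). *MRPL12* is on this list and is also counted among the mitochondrial ribosomal proteins. Of 16 genes for processing and modification of these RNAs, 14 were lower and 1 higher, including *ELAC2* (−0.51) and *PRORP* (−0.38), which cut the tRNAs out of the precursor, the tRNA-modifying *GTPBP3* (−1.21) and the rRNA methylase *MRM2* (−0.79). Of 14 genes for stability and decay, 12 were lower and 0 higher, including *PNPT1* (−0.80) and *SUPV3L1* (−0.33) of the degradosome and *LRPPRC* (−0.45) and *SLIRP* (−0.29), which bind and stabilize mitochondrial mRNAs. The counts called lower between the sums were the same for these lists, at 9, 14 and 12.

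Among genes of mitochondrial DNA maintenance, 9 of 17 were lower, such as the helicase *TWNK* (−0.57), and 3 higher, such as the p53 target *RRM2B* (0.40). Of 9 regulators of mitochondrial biogenesis, 7 were lower, such as *GABPA* (−0.55) and *PPARGC1A* (−0.48). Between the sums 8 and 3 maintenance genes were called lower and higher, and 5 regulators lower. The mitochondrial ribosomal proteins, the partners of the rRNAs, were lower in 66 of 83 and higher in 4, with a median of −0.27, and in 55 and 1 between the sums. Nuclear subunits of the respiratory chain showed smaller values. In complex I 12 of 37 were lower and 6 higher, in complex II 2 of 4 lower and 2 higher, in complex III 4 of 9 lower, in complex IV 1 of 11 tested lower and 6 higher, and in complex V 9 of 18 lower and 2 higher. Between the sums, 5 were lower and 2 higher in complex I, 2 lower and 1 higher in complex II, 2 lower in complex III, 0 either way in complex IV and 3 lower in complex V. These counts stand against the 71.4% of all genes called over the 30 libraries (34.2% lower and 37.2% higher). Between the sums they stand against 54.9% (26.4% lower and 28.4% higher).

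Other RNAs that reflect library make-up also differed between the times. Among the 3 measured, *NEAT1* (0.50) and the signal recognition particle RNA *RN7SL2* (0.40) were higher and *MALAT1* (−0.37) was lower at 24 h. The nuclear copy *MTCO1P12* was higher by 0.78 (SE 0.222) over the 30 libraries and was not called between the sums (0.78, adjusted P = 0.0900), and *MTCO3P12*, the other copy tested, was at 0.06 (SE 0.307) and at 0.10 between the sums, with no call. Their part in the results on mitochondrial transcripts was not tested.

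The replicate number accounted for more of the variation of the median mitochondrial gene than of the median gene. The sum of squares of log2 CPM over the 30 libraries was split by time, vector and replicate number. For the median mitochondrial gene, replicate number took 23% and replicate number by time 11.8%, against 4.26% and 5.5% for the median of all genes tested. Time took 17.5% (31.1% over all genes), vector 10.7% (14.2%) and vector by time 7.38% (6.58%). The rRNAs were an exception, with 69.6% for time in MT-RNR1 and 75.5% in MT-RNR2. In MT-CO3 replicate number took 24.5% and replicate number by time 50.8%, with 11.3% for time. In MT-CO1 the values were 20.5%, 31.5% and 39.7%, and in MT-ATP8 42.6%, 3.52% and 15.9%. For the mRNA share of each library the same split gave 40.4% for time, 4.4% for vector, 21.8% for replicate number and 27.5% for replicate number by time.

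**Figure D3:**
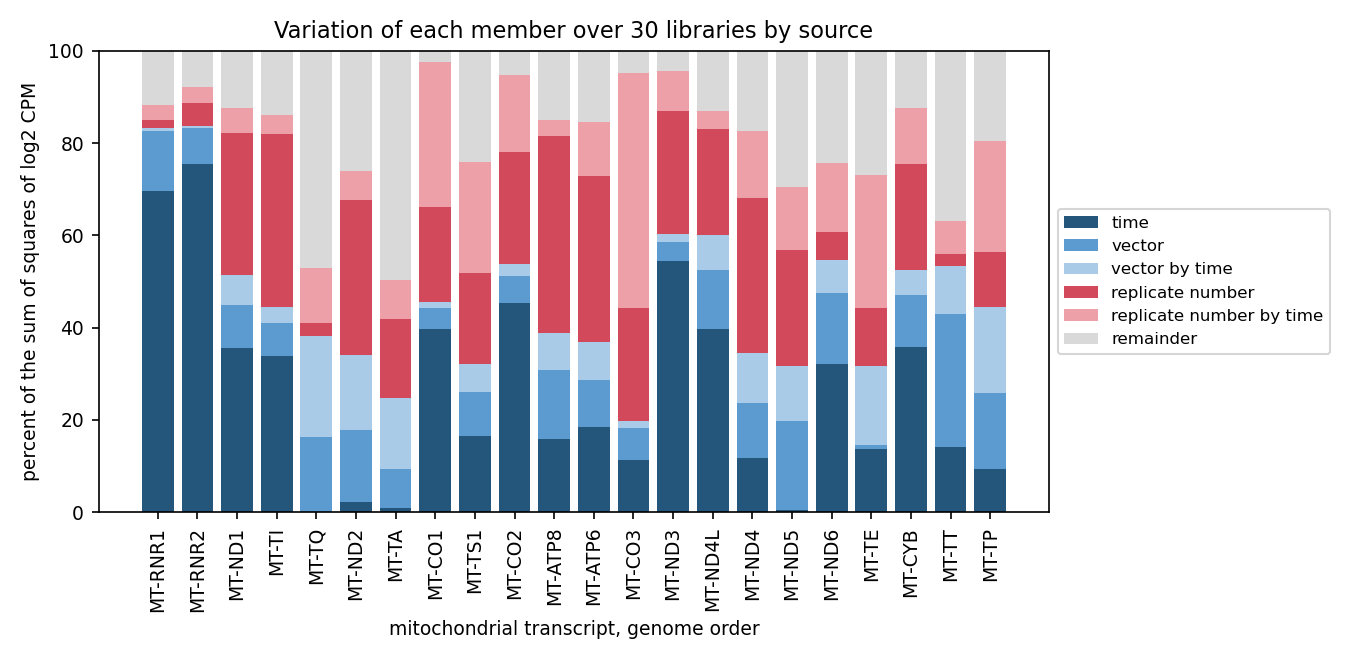
Percent of the sum of squares of log2 CPM over 30 libraries by source for each of the 22 mitochondrial genes tested, in genome order. Time (dark blue) fills most of the bars of MT-RNR1 (69.6%) and MT-RNR2 (75.5%), while the sources that involve the replicate number (red) together fill more than time in the bars of MT-CO1, MT-CO3, MT-ATP8 and others.

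At 6 h, replicate 3 stood apart. MT-CO1 was at 348 to 533 CPM in the 5 libraries of replicate 1, at 493 to 671 CPM in replicate 2 and at 890 to 1232 CPM in replicate 3. Every library of replicate 3 was above every library of the other replicates. MT-CO3 was at 455 to 636, 582 to 780 and 982 to 1226 CPM and MT-ND3 at 22.5 to 37.7, 21.1 to 32.2 and 60.7 to 85.1 CPM in replicates 1, 2 and 3. A test of the replicate number within 6 h, with vector in the model, called 12 of 22 mitochondrial genes, 10 of them mRNAs, against 5.37% of all genes. Ordered by P over all 20875 genes tested, MT-CO1, MT-CO3, MT-ND3 and MT-CO2 were in positions 1, 2, 3 and 5. Replicate 3 was higher than replicate 1 by 1.23 on the log2 scale in MT-CO1 (SE 0.0825, adjusted P = 1.06e-08), by 1.26 in MT-ND3 (SE 0.132), by 1.09 in MT-CO2 (SE 0.112) and by 0.98 in MT-CO3 (SE 0.0729). In all, 8 genes were called higher in replicate 3 than in replicate 1 (against 4.94% of all genes, 2.35% higher) and 13 higher than in replicate 2 (4.89%, 2.67% higher), and 0 differed between replicates 1 and 2 (0.149%). Replicate 3 at 6 h had the highest median depth, 58180900 counts, against 48220600 and 46752100 in replicates 1 and 2. Its libraries ran from 38905300 to 71950500 counts, those of replicate 1 from 39565200 to 51236700 and those of replicate 2 from 42647700 to 48091500. The part of depth was not tested.

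At 24 h the order was another. MT-CO1 was at 1451 to 2312 CPM in replicate 1, at 607 to 935 CPM in replicate 2 and at 988 to 1335 CPM in replicate 3, so that the replicates did not overlap. MT-ND4 was at 97.1 to 186, 35.9 to 56.4 and 63.0 to 109 CPM and MT-CO3 at 1092 to 1523, 595 to 834 and 768 to 986 CPM. The replicate number was called for 18 of 22 genes, including all 13 mRNAs, against 49.4% of all genes. A total of 19 genes were lower in replicate 2 than in replicate 1 (against 44.6% of all genes, 21.7% lower), with log2 differences of −1.12 in MT-CO1 (SE 0.0821, adjusted P = 5.46e-09), −0.76 in MT-CO3 (SE 0.0725) and −0.49 in MT-ND3 (SE 0.129). Between replicates 3 and 1, 5 genes were called lower (41.5%, 21% lower), and between replicates 3 and 2, 10 were called higher (4.23%, 2.09% higher). Median depth was 37201100, 45631400 and 41609500 counts in replicates 1, 2 and 3.

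The mRNA share had its highest replicate in common between vectors. At 6 h it was highest in replicate 3 for 5 of 5 vectors and lowest in replicate 1 for 4 and in replicate 2 for 1, and at 24 h it was highest in replicate 1 and lowest in replicate 2 for 5 of 5 vectors. Over both times together, with 1 effect of the replicate number, 10 of 22 mitochondrial genes were called, 9 of them mRNAs, against 5.26% of all genes. The effect of the replicate number differed between 6 h and 24 h in 12 of 22 genes, against 38.4% of all genes. The labels give no date, culture or sequencing run for a replicate number, and 10 libraries were pooled in each run, with no source used here naming which. A shared day, sort, extraction or run cannot be told apart from them.

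The vectors were compared at each time to ask whether p53, its RW mutant or the O6-meG lesion changed mitochondrial transcripts. Only the p53 TM groups received O6-bzG. In their comparisons with pGFP and wild type p53, the vector and the compound cannot be told apart. With edgeR over the 30 libraries and no term for the replicate number, 0 of 22 genes were called in any of the 12 comparisons. The shares of all genes called were, for 6 h and 24 h, 8.75% and 34.9% with wild type p53 against pGFP, 0.00479% and 0.00479% with RW mutant p53, 0.35% and 29.3% with p53 O6-meG and 0.0814% and 9.2% with p53 TM against pGFP, 0.0766% and 18.5% with p53 TM against wild type p53, and 0% and 6.5% with p53 TM against p53 O6-meG. At an unadjusted P under 0.05, 1 mitochondrial gene passed with wild type p53, 2 with p53 O6-meG, 2 with p53 TM against wild type p53 and 1 with p53 TM against p53 O6-meG at 6 h, 1 with p53 TM against pGFP at 24 h, and 0 in the rest. DESeq2's Wald test also called 0 in each. The 6 h shares of all genes with p53 O6-meG and p53 TM rest on the 2 libraries with conflicting titles as labelled. With the replicate block, the shares for p53 O6-meG against pGFP and p53 TM against wild type p53 were higher without these libraries, as given below.

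Values with wild type p53 lay mostly above those with pGFP, without a call in that fit. MT-RNR1 at 6 h was at 201, 246 and 220 CPM with wild type p53 in replicates 1, 2 and 3. With pGFP it was at 60.8, 109 and 148 CPM, so these groups did not overlap. The values of MT-CO1 at 6 h overlapped, at 501, 671 and 1232 CPM with wild type p53 and 455, 568 and 991 CPM with pGFP. The median log2 fold change over the 22 genes was 0.42 at 6 h and 0.41 at 24 h (0.02 and 0.01 over all genes). At each time 21 of 22 were above 0, against 54.4% and 50.6% of all genes. The mitochondrial genes moved together within libraries, so they are not 22 separate observations. At 24 h the values were 0.74 in MT-RNR2 (SE 0.511, adjusted P = 0.289), 0.37 in MT-CO1 (SE 0.446, adjusted P = 0.578) and 0.48 in MT-ND5 (SE 0.385, adjusted P = 0.371). Libraries with p53 TM lay below those with wild type p53, with medians of −0.60 at 6 h and −0.47 at 24 h (−0.02 and −0.01 over all genes). Both comparisons use the same wild type libraries. With RW mutant p53 against pGFP the medians were 0.21 at 6 h and −0.25 at 24 h, and with p53 O6-meG −0.26 and 0.01. Values above 0 were 17 and 2 of 22 with RW mutant p53, and 5 and 13 with p53 O6-meG as labelled. In the study, cells with the O6-meG vector and no O6-bzG made almost only wild type p53 transcripts.

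At 24 h libraries with the same replicate number deviated together over all genes, so the vectors were also compared within replicate numbers. In replicates 1, 2 and 3, MT-CO1 was at 1479, 835 and 1239 CPM with pGFP, at 2312, 935 and 1335 CPM with wild type p53 and at 1632, 771 and 1083 CPM with p53 TM. Wild type p53 was thus highest of the 3 vectors in each replicate number, while the range over replicate numbers was wider than the difference between vectors. MT-ND5 was at 75, 42.2 and 54.7 CPM with pGFP, at 117, 46.1 and 76.3 CPM with wild type p53 and at 69.7, 41.6 and 50.4 CPM with p53 TM, and wild type p53 was again highest and p53 TM lowest in each replicate number. MT-ND5 was the only mRNA with p53 TM below pGFP in each replicate number. Of the other mRNAs, 7 were above pGFP with p53 TM in 1 replicate number and 5 in 2.

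With a block for the replicate number within each time, 4 of 22 mitochondrial genes were called higher with wild type p53 than with pGFP at 24 h, namely MT-ATP8, MT-CO1, MT-CO2 and MT-CO3, against 46.9% of all genes (25.9% higher). A fit of the 24 h libraries alone with the same block was also made, which was not among the planned settings. In it 10 of 19 tested were higher, against 51.3% of all genes (26.6% higher). There MT-ATP8 rose by 0.70 (SE 0.223, adjusted P = 0.0143), MT-ND1 by 0.46 (SE 0.124, adjusted P = 0.00478), MT-ND5 by 0.41 (SE 0.0886, adjusted P = 0.000878), MT-CO1 by 0.29 (SE 0.0846, adjusted P = 0.00858) and MT-CO3 by 0.22 (SE 0.0728, adjusted P = 0.0188), that is by less than 2-fold. The rRNAs were not called, with 0.58 in MT-RNR2 (SE 0.314, adjusted P = 0.135). In a fit of only the wild type p53 and pGFP libraries of 1 time, without the block, MT-RNR2 was called at 24 h (0.73, SE 0.201, adjusted P = 0.0216, against 30.7% of all genes), and both rRNAs at 6 h (against 19.4%). Beside these values, the mRNAs above 0 were 13, 11 and 13 of 13 in replicates 1, 2 and 3, with median differences of 0.73, 0.10 and 0.37. The calls leaned on replicate 1. With the block within each time, leaving out replicate number 1 of 24 h left 0 calls, leaving out number 2 left 2 (MT-CO2 and MT-ND3) and leaving out number 3 left 3 (MT-CO1, MT-CO2 and MT-CO3). Without the block, leaving out the replicate 1 library of wild type p53 alone put MT-CO1 at −0.10 and MT-CO3 at −0.08.

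With p53 TM against wild type p53 at 24 h, the block within each time gave 4 genes called lower, MT-CO1, MT-CO2, MT-CO3 and MT-ND4L, against 32.6% of all genes (17.3% lower). The 24 h libraries alone, again the unplanned fit, gave 12 of 19 lower, against 38.7% (22.1% lower). There the log2 differences were −0.52 in MT-ND5 (adjusted P = 0.000192), −0.54 in MT-ND4L (SE 0.104, adjusted P = 0.000585), −0.38 in MT-CO1 (SE 0.0845, adjusted P = 0.00177) and −0.70 in MT-ATP8 (SE 0.220, adjusted P = 0.0169). The mRNAs above 0 were 0, 4 and 0 of 13 in replicates 1, 2 and 3, and leaving out replicate number 1, 2 or 3 of 24 h left 3, 4 and 1 calls. Since the wild type libraries are shared, a high wild type library moves both comparisons at once. In the 24 h libraries alone, p53 TM, p53 O6-meG and RW mutant p53 against pGFP, and p53 TM against p53 O6-meG, gave 0 calls among the mitochondrial genes, against 23%, 45.9%, 0.0149% and 26.8% of all genes.

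**Figure D4:**
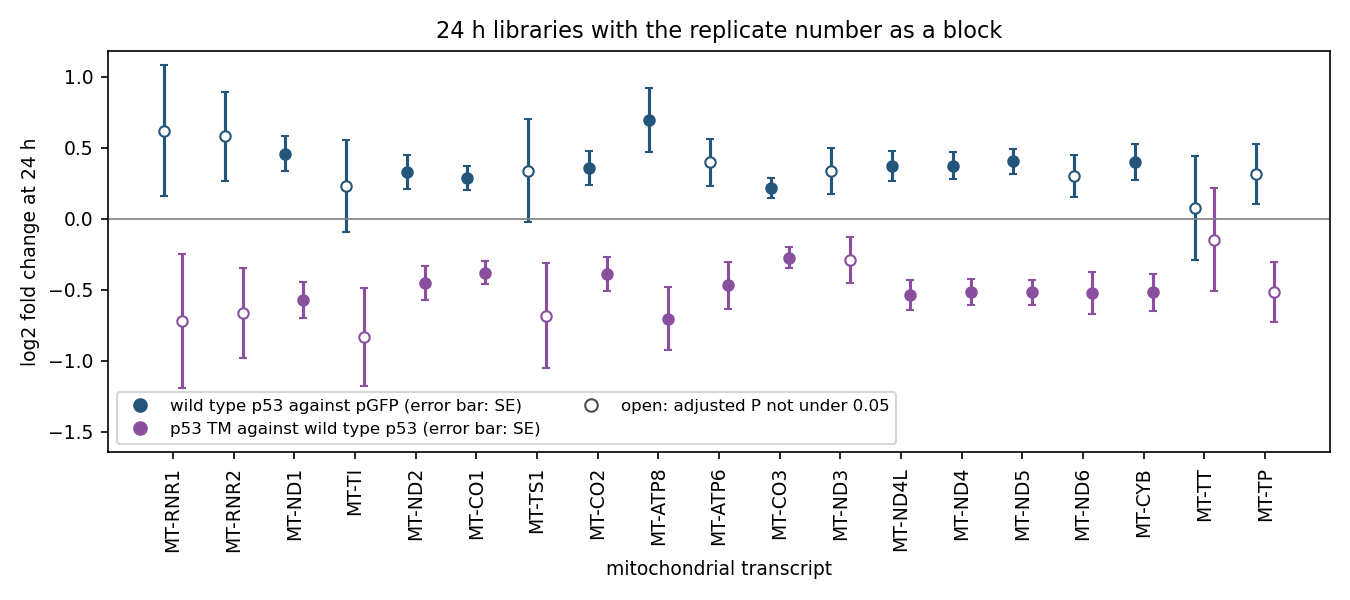
Log2 fold change at 24 h of the 19 mitochondrial genes tested in the 24 h libraries with the replicate number as a block, for wild type p53 against pGFP (blue) and p53 TM against wild type p53 (purple), with SE bars. Filled points have an adjusted P under 0.05, and this fit was not among the planned settings. All blue points lie above 0 and all purple points below 0, and both sets share the wild type libraries.

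At 6 h the replicate numbers were not shown to pair the libraries over all genes. Over the mitochondrial genes alone, the median correlation of deviations from group means at 6 h was 0.305 between libraries with the same number and −0.121 between those with different numbers (0.170 and −0.0921 at 24 h). Also, the 2 libraries with conflicting titles enter the comparisons of p53 O6-meG and p53 TM. With the block within each time, the calls were 1 gene with wild type p53 against pGFP (MT-ND3, higher, against 15.1% of all genes and 11.7% higher), 1 lower with p53 O6-meG (MT-TP, against 3.89% and 0.723% lower) and 5 lower with p53 TM against wild type p53 (against 7.9% and 5.9% lower). With both conflicting libraries left out, these counts were 3, 3 and 14 (against 18.8%, 17.2% and 21.1%), and with both placed by the group that their titles name first 1, 1 and 14 (19.3%, 20.4% and 26.1%). The 14 genes were all called lower and were 13 mRNAs and MT-TP in each case. In the 6 h libraries alone with the block, and both libraries as labelled, the counts were 1, 0 and 0 (10.3%, 0.0368% and 0%). Within replicate numbers, all 13 mRNAs were below 0 with p53 TM against wild type p53 at 6 h in each of the 3 pairs, with median differences of −1.51, −0.32 and −0.51 in replicates 1, 2 and 3, and replicate 2 is the pair that holds a library with conflicting titles. Counts on MT-TP, the gene of the tRNA for proline, were at 0.741, 1.23 and 0.769 CPM in replicates 1, 2 and 3 labelled p53 O6-meG at 6 h and at 1.70, 1.66 and 2.95 CPM in pGFP. The groups did not overlap. The log2 difference of MT-TP was −1.15 with the block (SE 0.272, adjusted P = 0.0267) and −1.21 without it (SE 0.421, adjusted P = 0.218).

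Nuclear genes for mitochondrial RNA were tested in the same comparison of wild type p53 with pGFP at 24 h, where 34.9% of all genes were called (20.3% higher and 14.6% lower). Of the 16 processing genes 3 were higher and 0 lower, namely *MTO1* (1.11, SE 0.122) and *GTPBP3* (0.40, SE 0.117), which modify tRNAs, and the rRNA methylase *MRM1* (1.09, SE 0.123). Of the 10 genes on the transcription list, *POLRMT* (0.46) and *TFAM* (0.26) were higher and *MTERF2* (−0.38) and *MTERF3* (−0.50) lower. Of the 14 stability and decay genes 4 were higher, among them the nuclease *REXO2* (0.44), and 0 lower. DNA maintenance genes included *RRM2B* (1.42, SE 0.168), *MGME1* (0.85) and *DNA2* (−0.64) among 3 higher and 3 lower of 17. *PPARGC1B*, a coactivator of mitochondrial biogenesis, was higher by 1.64 (SE 0.183), with *ESRRA* (0.44) also higher and *ESRRG* (−0.99) and *GABPA* (−0.30) lower. In the respiratory chain, 6 of 37 complex I genes were higher, such as *NDUFV3* (1.27), as was *SDHA* (0.83) of complex II, while 0 of 11 genes of complex IV were called. Of 83 mitochondrial ribosomal proteins 9 were higher and 2 lower. With the replicate block within each time, where 46.9% of all genes were called, the counts higher and lower were 4 and 3 for processing, 2 and 4 for transcription, 6 and 3 for stability and decay, 6 and 4 for DNA maintenance, 2 and 3 for biogenesis regulators and 22 and 6 for ribosomal proteins. With that block they were 8 and 2 for complex I, 2 and 0 for complex II, 2 and 1 for complex III, 2 and 1 for complex IV and 2 and 0 for complex V.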

How the data were processed

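RNA of GFP-sorted H1299 cells was sequenced after Ribo-Zero Gold depletion of cytoplasmic and mitochondrial rRNA (TruSeq Stranded Total RNA, 15 PCR cycles, single reads of 75 cycles, NextSeq 500). The authors aligned reads to hg38 with STAR 2.5.3a and counted genes of GENCODE v27 with featureCounts (Subread 1.5.2). The deposited values used here are these raw counts per gene. The strand setting and the treatment of reads with several or overlapping matches are not given in the sources used here. A deposited table of normalized values was not used. No column of values per sample other than those of the 30 libraries was found (0).

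Identifiers were matched to symbols and coordinates of GENCODE v44, for 38904 of 39359 genes (455 unmatched). Counts were tested with edgeR 4.0.16 (R 4.3.3, quasi-likelihood, TMM, filterByExpr by group, 20875 genes kept) over all 30 libraries without a replicate block, and P values were adjusted by the Benjamini-Hochberg method over all genes tested, with a threshold of 0.05. Values in CPM are scaled by TMM, except those of the cell type markers, which are scaled by library totals. Sums of squares used log2 CPM with a prior count of 0.5. Exact nuclear copies were searched with 75-base windows (blastn 2.17.0). Alternatives were DESeq2 1.42.0, other scalings, no filter, each library left out, replicate blocks, other placements of the 2 libraries with conflicting titles and counts summed over vectors. Fits of 1 time alone, and the block within each time with those 2 libraries moved or left out, were not planned. Nor was that block without a replicate number of 24 h. The tests were checked on simulated counts. The study's methods call the replicates biological triplicates, and the sources used here do not say at which step they were separated. Pairs of libraries of a group differed by more than sampling noise (chi-square per degree of freedom of at least 6.08 over 30 pairs), and none was merged.

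Replicate numbers pair the libraries at 24 h, since deviations from group means correlated above 0.1 in 30 of 30 pairs with the same number (0.192 to 0.627, median 0.434). At 6 h this held for 10 of 30 pairs, and between times for 6 of 75, so a block was placed within each time.

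Genes named are the 13 mRNAs, the 2 rRNAs and the 3 tRNAs that the rule selected (MT-TI, MT-TT and MT-TP). Other tRNAs, and nuclear genes from lists of their pathways, are named where a count needs them. The members and lists were chosen with earlier results of these data known.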

Additional observations from a re-analysis of the deposited data

Results flagged for a closer look

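The differences between replicate numbers were not the same at 6 h and at 24 h in 12 of the 22 mitochondrial genes tested, by an F test of replicate number by time in edgeR, where 38.4% of all genes were called. These were MT-RNR2, MT-CO1, MT-CO2, MT-CO3, MT-ATP6, MT-ND3, MT-ND4, MT-ND6, MT-CYB, MT-TS1, MT-TE and MT-TP, with adjusted P values of 4.43e-09 in MT-CO1 and 1.90e-08 in MT-CO3.

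The change of MT-TP from 6 h to 24 h differed between p53 O6-meG and pGFP by 1.49 on the log2 scale (SE 0.393, adjusted P = 0.0109) with a replicate block within each time. MT-TP was at 0.741, 1.23 and 0.769 CPM at 6 h and at 1.88, 1.15 and 1.17 CPM at 24 h in the libraries labelled p53 O6-meG, and at 1.70, 1.66 and 2.95 CPM and 1.39, 0.727 and 1.29 CPM with pGFP. The difference was 1.51 without a block (adjusted P = 0.131) and 1.48 with 1 block over both times (adjusted P = 0.0908), and 1 of the 6 h libraries labelled p53 O6-meG has a title that names both groups.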

How the results depend on the processing

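The results were recomputed under 18 other settings and with each of 30 libraries left out. Over time 14 genes were called, 7 between counts summed over vectors, and 12 to 15 with 1 library left out, where the ratio of mean shares was 2.49 to 2.83. Taken by replicate number, that ratio was 4.95, 2.24 and 1.79 for numbers 1, 2 and 3. The replicate block, with libraries paired by number within each time, moved the counts of called genes from 0 to 4 for wild type p53 against pGFP and 4 for p53 TM against wild type p53 at 24 h, and to 1, 5 and 1 for wild type p53, p53 TM against wild type p53 and p53 O6-meG at 6 h, and the count for replicate number from 10 to 18. In the same order, the block with the 2 libraries grouped by the name their titles give first gave 4, 7, 1, 14, 1 and 18, and 4 for vector by time. With these libraries left out the block gave 5, 7, 3, 14, 3 and 20, and 10 for vector by time. The libraries of 1 time alone with the block gave 10 and 12 at 24 h and 1 for wild type p53 at 6 h. The block changed no other count among the vector comparisons, and 1 block over both times left all of them at 0. Without replicate number 1, 2 or 3 of 24 h the block gave 0 to 3 and 1 to 4 calls at 24 h, 0 to 1 and 0 to 3 for wild type p53 and p53 TM against wild type p53 at 6 h, and 14 to 19 for replicate number. A fit of only the groups compared called MT-RNR2 at 24 h (1) and MT-RNR1 and MT-RNR2 at 6 h (2) for wild type p53 against pGFP. Without the filter the replicate number was called for 16 genes, and with 1 library left out for 9 to 14. With 1 library left out, p53 O6-meG against pGFP at 24 h gave 0 to 1 calls (MT-TY without replicate 1 of pGFP) and p53 TM against wild type p53 0 to 2 (both rRNAs without replicate 1 of p53 TM). Over time the value of MT-ND2 was −0.035 with the block and without number 1, and that of MT-ND5 was 0.10 without TMM and 0.15 with the block and without number 2, and ran from −0.147 to 0.0075 with 1 library left out, the highest without replicate 3 of p53 TM at 6 h. For wild type p53 against pGFP at 24 h, values with 1 library left out ran from −0.0051 to 0.895 for MT-ATP6, −0.102 to 0.624 for MT-CO1, −0.078 to 0.435 for MT-CO3, −0.088 to 0.821 for MT-ND4, −0.110 to 0.828 for MT-TI and −0.207 to 0.407 for MT-TT, the lowest without replicate 1 of wild type p53 except for MT-TI, which was −0.074 there and lowest without replicate 2 of pGFP. MT-TT was −0.20 without replicate 2 of pGFP. With the block, MT-TI was −0.017 without number 3 and MT-TT −0.060 without number 2, and MT-TT was −0.038 without TMM. The cause was not tested. Low counts kept 9 tRNAs, with at most 16 counts in a library, out of the tests.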
